A study of Coturnix japonica with 54 samples.

Results

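The synaptic vesicle release machinery of the Japanese quail mediobasal hypothalamus is described here as 57 genes, of 19916 genes in the authors' table of CPM, reads scaled to a fixed library total. They were taken by gene symbol: synaptotagmins, synapsins, SV2 proteins, VAMP proteins, syntaxins, SNAP proteins, syntaxin-binding proteins, complexins, RAB3 proteins, UNC13 proteins and RIM proteins. The symbol rule does not use their values, but the members were chosen with earlier results of these data known. The birds were 54 males in 9 photoperiod groups of 6, each kept for 2 weeks at its last day length, and the RNA of each bird was a separate Oxford Nanopore cDNA library. In the order in which the flock met them, the groups were 16La, 14La, 12La and 10La on days that shortened, with 16, 14, 12 and 10 h of light, then 8L, with 8 h, then 10Lv, 12Lv, 14Lv and 16Lv on days that lengthened, with 10, 12, 14 and 16 h. The a was read as the declining, autumn-like arm and the v as the rising, spring-like arm. All groups started from the same long days of 16 h, so day length and time since the start of the series cannot be told apart between neighbouring steps. Every rising group came later in the series than every declining group. Arm and time therefore cannot be told apart at the same day length, also for 16Lv and 16La. The labels give no strain, age or batch.

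Neurons store transmitter in vesicles and release it when calcium enters the terminal. VAMP proteins on the vesicle wind around syntaxin and SNAP proteins on the plasma membrane and pull the membranes together. Syntaxin-binding proteins and UNC13 proteins assemble this complex, complexins hold and then speed it, synaptotagmins sense calcium, RIM proteins place vesicles beside calcium channels, and RAB3 proteins and synapsins attach vesicles to these sites and to each other. In the mediobasal hypothalamus the same proteins also serve the release of neurohormones at the median eminence, and other members of the families carry cargo between organelles in all cells.

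Of the 57 genes, 48 passed the filter for testing, which asked for 6 or more libraries at 10 CPM or above, as did 8268 genes in all. The 48 were 11 of 14 synaptotagmins, 9 of 12 syntaxins, all 5 VAMP proteins, 4 of 5 syntaxin-binding proteins, all 4 RIM proteins, all 3 SNAP, 3 RAB3 and 3 UNC13 proteins, both synapsins, both SV2 proteins and 2 of 4 complexins. The 9 below the filter were CPLX3 with 25 reads over all libraries, CPLX4 with 4, STX3 with 11, STX17 with 169, STX19 with 180, STXBP3 with 118, SYT6 with 117, SYT12 with 139 and SYT15 with 21. SYN1 and SV2A, widely used markers of synapses, were not analysed here in CPM. Of the 57 symbols, 53 were in the RefSeq gene table of the quail assembly Coturnix japonica 2.1; VAMP2, STX3, STX10 and SYT15 were not.

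The libraries held between 251382 and 1895615 recovered reads (median 938816). In the CPM table replicates 3 and 6 of 16Lv had a chi-square per degree of freedom of 0.954, against 6.26 for the closest other pair from 1 group. They differed by less than the sampling noise, so their mean was used as 1 sample. This gave 53 libraries and n = 5 in 16Lv for the CPM values. In each group 1 library, 9 in all, had under 400000 reads, and in 8 of the 9 groups it was the third by bird number. The tissue label was checked against marker genes. Of 10 markers of neurons 9 were listed and all 9 had reads in every library, with a summed level between 22520 and 55695 CPM, most of it from MAP2. Markers of hypothalamic neuropeptide neurons summed to between 169 and 558 CPM, those of oligodendrocytes to between 3988 and 11489 CPM, of astrocytes and tanycytes to between 625 and 1499 CPM, of microglia and macrophages to between 8.69 and 111 CPM, of endothelium to between 0 and 58.4 CPM, of pituitary cells to between 24.9 and 361 CPM and of red blood cells to between 597 and 2806 CPM. Most of the pituitary sum came from CGA, the alpha subunit shared by pituitary glycoprotein hormones, which had 6701 reads and between 14.1 and 316 CPM (mean 143 CPM), with reads in all 53 libraries. Of the other pituitary markers POMC, which is also on the list of hypothalamic neuropeptide neurons, had 1329 reads (mean 28.7 CPM). It had reads in all 53 libraries. PRL had 39 reads, TSHB 21, GH 4 and FSHB 1 over all libraries. The part of pituitary RNA in the values below was not tested. In such bulk tissue, fewer cells of a type and less RNA per cell cannot be told apart.

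None of the 48 tested genes differed between photoperiod groups past the threshold. With limma, 0 of 48 had a Benjamini-Hochberg adjusted p under 0.05 in the test among the 9 groups, where 0.0363% of all genes did. At an unadjusted p under 0.05 there were 2 of the 48, against 3.74% of all genes. The count of members called was also 0 with limma-voom, edgeR and DESeq2 on the recovered reads. The sum of the 48 genes lay between 3034 and 4574 TMM-scaled CPM in single birds, with group means from 3625 ± 229 CPM (SD, n = 6) in 14Lv to 4027 ± 492 CPM (SD, n = 6) in 8L, and the ranges of these 2 groups overlapped.

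The core genes of fast release were measured in every library, with the exception of UNC13A in 1 bird, and their groups overlapped at every step. SNAP25, the plasma membrane SNARE that holds a pair of helices of the complex, lay between 129 and 269 TMM-scaled CPM over the 53 libraries. Its group medians in step order from 16La to 16Lv were 211, 213, 193, 174, 200, 194, 190, 188 and 182 CPM. Birds near either end of the SNAP25 range were in 8L, 10La and 14Lv, so each of these groups spanned most of it. The highest SNAP25 birds of 8L and of 10La were in libraries with under 400000 reads. STX1A, the syntaxin that pairs with SNAP25, had group medians of 60.3, 54.6, 57.4, 56.8, 71.3, 55.7, 58.5, 48.2 and 66.8 CPM. The highest STX1A bird, at 80.6 CPM, was in 8L, a group that also held a bird at 36.7 CPM.

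On the vesicle side, VAMP2, the main vesicle SNARE of forebrain synapses in mammals, lay between 12.6 and 51.1 CPM, and its group medians in step order were 31.3, 23.3, 23.3, 18.9, 24.1, 26.8, 25.4, 24.4 and 21.4 CPM. VAMP1, its close paralogue, lay between 4.99 and 40.8 CPM, with medians from 17.4 CPM in 16La to 24.6 CPM in 16Lv. Both spread over most of their range within single groups. RAB3A, the vesicle GTPase that RIM proteins bind, lay between 69.4 and 223 CPM, with group medians from 112 CPM in 12Lv to 145 CPM in 16Lv. SYN2, a synapsin that ties vesicles into the reserve pool, lay between 17.5 and 95.3 CPM and its medians from 33.0 CPM in 10La to 48.6 CPM in 12Lv. The highest VAMP2 value and the lowest VAMP1, RAB3A and SYN2 values were in libraries with under 400000 reads.

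The calcium sensor of synchronous release, SYT1, had group medians of 36.1, 37.2, 35.9, 30.5, 36.6, 36.5, 33.6, 38.5 and 38.5 CPM in step order, over a range of 15.6 to 61.2 CPM. Its highest birds were 1 in 14La and 1 in 8L, the latter in a library with under 400000 reads, and 8L held a bird at 19.4 CPM as well. The complexins, small proteins that bind the assembled SNAREs, were CPLX1, with medians of 48.2, 47.3, 58.1, 44.3, 44.9, 37.5, 42.3, 50.7 and 51.8 CPM, and CPLX2, with medians of 145, 92.7, 97.0, 107, 124, 119, 92.5, 113 and 134 CPM. CPLX2 had the second smallest p of the members in the test among the 9 groups (unadjusted p = 0.0424, limma adjusted p = 0.998). Its values in 14La were 72.4 to 125 CPM (median 92.7 CPM), against 118 to 187 CPM (median 145 CPM) in 16La, and 4 of the 6 birds in 14La lay below the lowest bird in 16La. The log2 change of CPLX2 for 14La minus 16La was -0.57 (SE 0.23; limma adjusted p = 0.999).

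At the active zone, the vesicle docking site, UNC13A, also called Munc13-1, which primes vesicles, was the core gene with the widest spread. It was at 0 in 1 bird of 10La and reached 172 CPM in 1 bird of 16Lv, both in libraries with under 400000 reads. The group medians of UNC13A were 70.2, 65.3, 53.1, 48.4, 66.8, 72.0, 35.8, 38.9 and 90.9 CPM in step order. RIMS1, the RIM scaffold of central synapses, lay between 284 and 1175 CPM, with medians of 608, 568, 732, 641, 672, 738, 702, 631 and 586 CPM. RIMS2, its paralogue, lay between 149 and 1285 CPM, and the birds of 8L alone ran from 184 to 1285 CPM. The lowest and highest RIMS1 values and the highest RIMS2 value were in libraries with under 400000 reads. CPM is not scaled by transcript length, so these levels are compared between birds and not between genes.

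**Figure D1:**
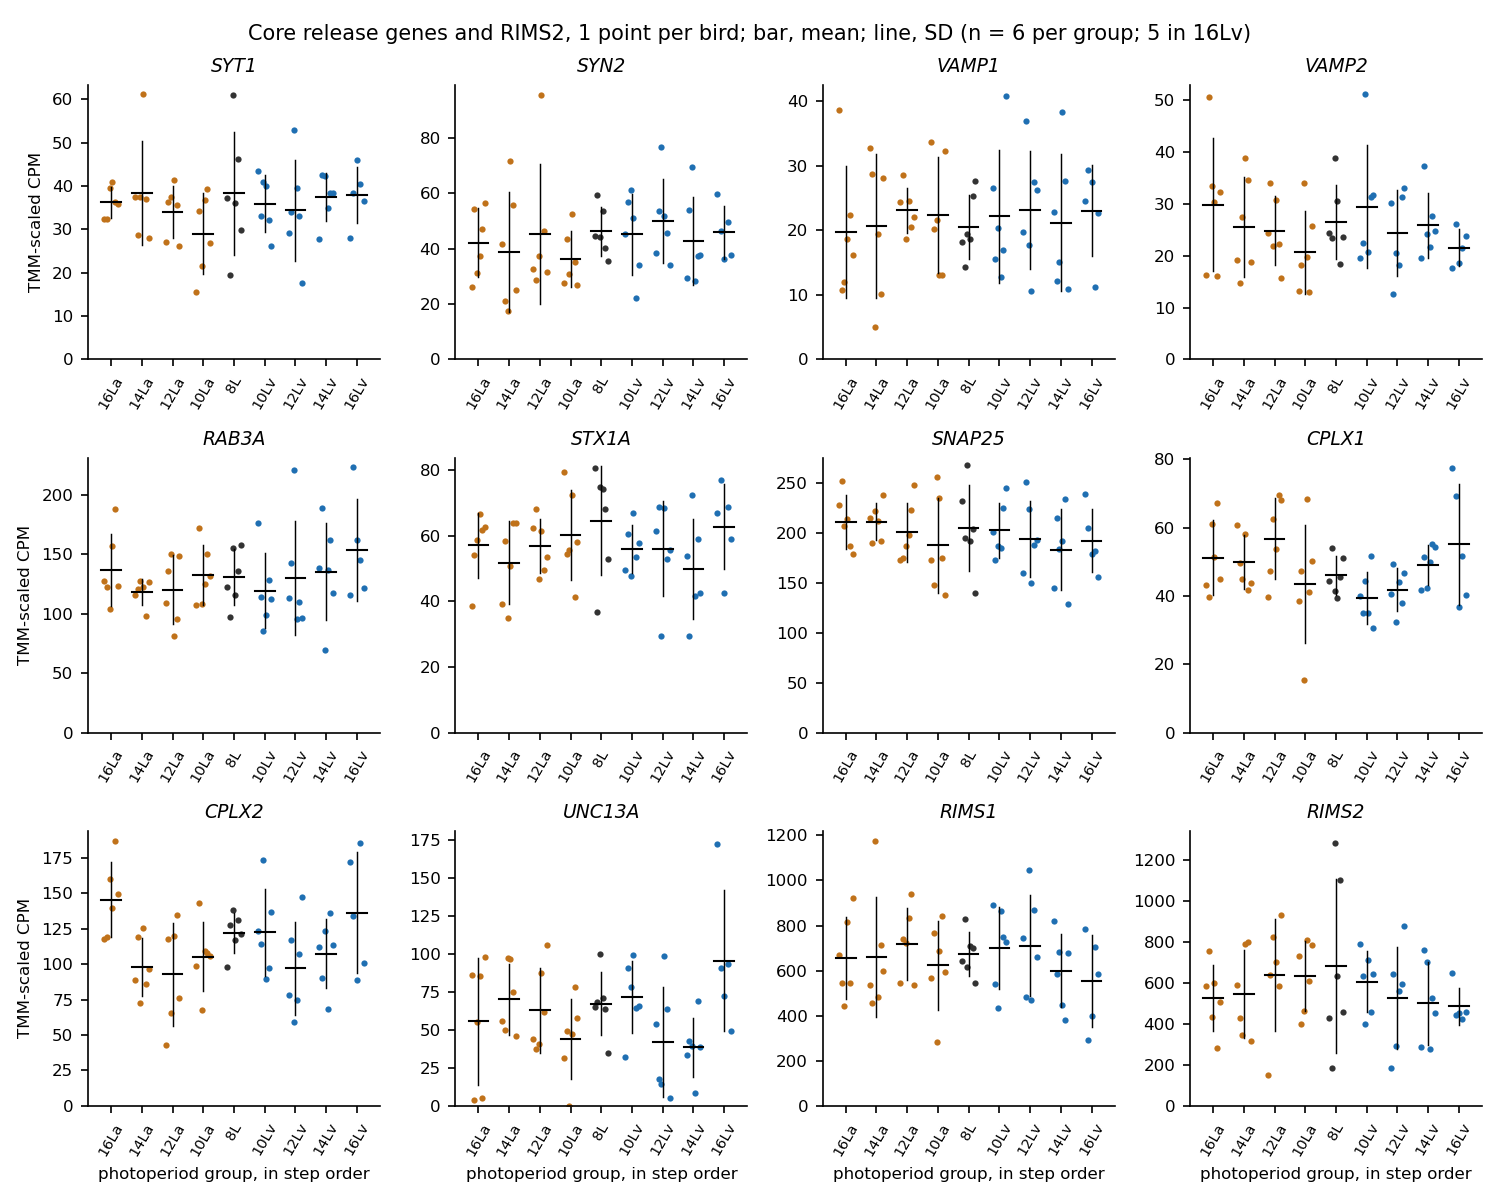
Level of 11 core release genes and RIMS2 in TMM-scaled CPM (vertical axes, from 0) in each bird, by photoperiod group in step order (orange, declining arm; dark grey, 8L; blue, rising arm). Bars are group means and vertical lines SDs (n = 6, and 5 in 16Lv, where 1 point is the mean of 2 agreeing columns); for SNAP25 all birds sit between 129 and 269 CPM, and in all 12 panels the groups overlap.

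The turn from long to short days is the comparison of 8L with 16La. No member was called (0 of 48 by limma, where 0% of all genes were), 3 of 48 had an unadjusted p under 0.05, where 4.22% of all genes did, and no member was called by limma-voom, edgeR or DESeq2. Of the 48 changes 21 were above 0 and 27 below, with a median log2 change of -0.06 for the members and 0.02 for all genes. The measured changes ran from -1.24 for SNAP23 to 1.26 for SYT7. For 26 of the 48 members (54.2%) the 95% interval lay wholly between -1 and 1 on the log2 scale, as it did for 36.7% of all genes. Among the core genes the interval was -0.37 to 0.25 for SNAP25, -0.27 to 0.57 for STX1A, -0.46 to 0.46 for SYT1, -0.65 to 0.47 for VAMP2, -0.43 to 0.57 for RIMS1 and -0.45 to 2.44 for UNC13A.

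The members with the smallest unadjusted p in this comparison were a syntaxin and a SNAP protein outside the core set. STX2, a plasma membrane syntaxin found in many cell types, measured 33.2 to 69.4 CPM in 8L (median 52.5 CPM), against 56.7 to 119 CPM in 16La (median 71.4 CPM). Of the 6 birds in 8L, 4 lay below the lowest bird in 16La, and the other 2 fell inside its range. Its log2 change was -0.56 (95% interval -1.02 to -0.10; SE 0.23; unadjusted p = 0.0188, limma adjusted p = 0.999). SNAP23, the widely expressed counterpart of SNAP25, measured 0 to 9.97 CPM in 8L (median 5.25 CPM), against 3.61 to 15.3 CPM in 16La (median 12.4 CPM), and 2 birds in 8L lay below all birds in 16La. Its log2 change was -1.24 (SE 0.53; unadjusted p = 0.0247, limma adjusted p = 0.999). SYT9, a calcium sensor known from mouse striatum and from secretory cells, measured 0 to 21.7 CPM in 8L (median 8.93 CPM), against 7.60 to 25.3 CPM in 16La (median 16.4 CPM), with a log2 change of -0.95 (SE 0.46; limma adjusted p = 0.999). The ranges overlapped for each of the 3 genes. The lowest value in 8L of each of the 3 was in a library with under 400000 reads. So were the highest STX2 and SYT9 values and the lowest SNAP23 value in 16La.

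For the return from short to long days, 16Lv was compared with 8L, which is also the group on top of the previous comparison, so the pair share the libraries of 8L. With limma 0 of 48 members were called, where 0% of all genes were; 3 had an unadjusted p under 0.05, where 5.41% of all genes did, and the count was 0 with limma-voom, edgeR and DESeq2. SYN3, a synapsin, measured 28.1, 16.9, 12.3, 21.4 and 16.3 CPM in 16Lv, against 5.54 to 12.6 CPM in 8L (median 10.0 CPM). All but 1 of the 5 values in 16Lv lay above all birds in 8L, and the lowest lay inside the range of 8L. The log2 change of SYN3 was 0.86 (95% interval 0.14 to 1.59; unadjusted p = 0.0210, limma adjusted p = 0.885). SNAP23 measured 14.1, 9.25, 10.3, 9.01 and 11.3 CPM in 16Lv, against the 0 to 9.97 CPM in 8L given above, and 3 of the 5 lay above all birds in 8L, with a log2 change of 1.25 (SE 0.56; limma adjusted p = 0.885). SYT7, a sensor for slow and asynchronous release, measured 0, 40.1, 9.10, 15.8 and 15.1 CPM in 16Lv, against 14.3 to 72.0 CPM in 8L (median 47.8 CPM). Its log2 change was -2.05 with a wide interval of -4.0 to -0.10 (limma adjusted p = 0.885). For SYN3, SNAP23 and SYT7 the first value listed for 16Lv was in a library with under 400000 reads. So were the lowest SYN3 and SNAP23 values and the highest SYT7 value in 8L.

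**Figure D2:**
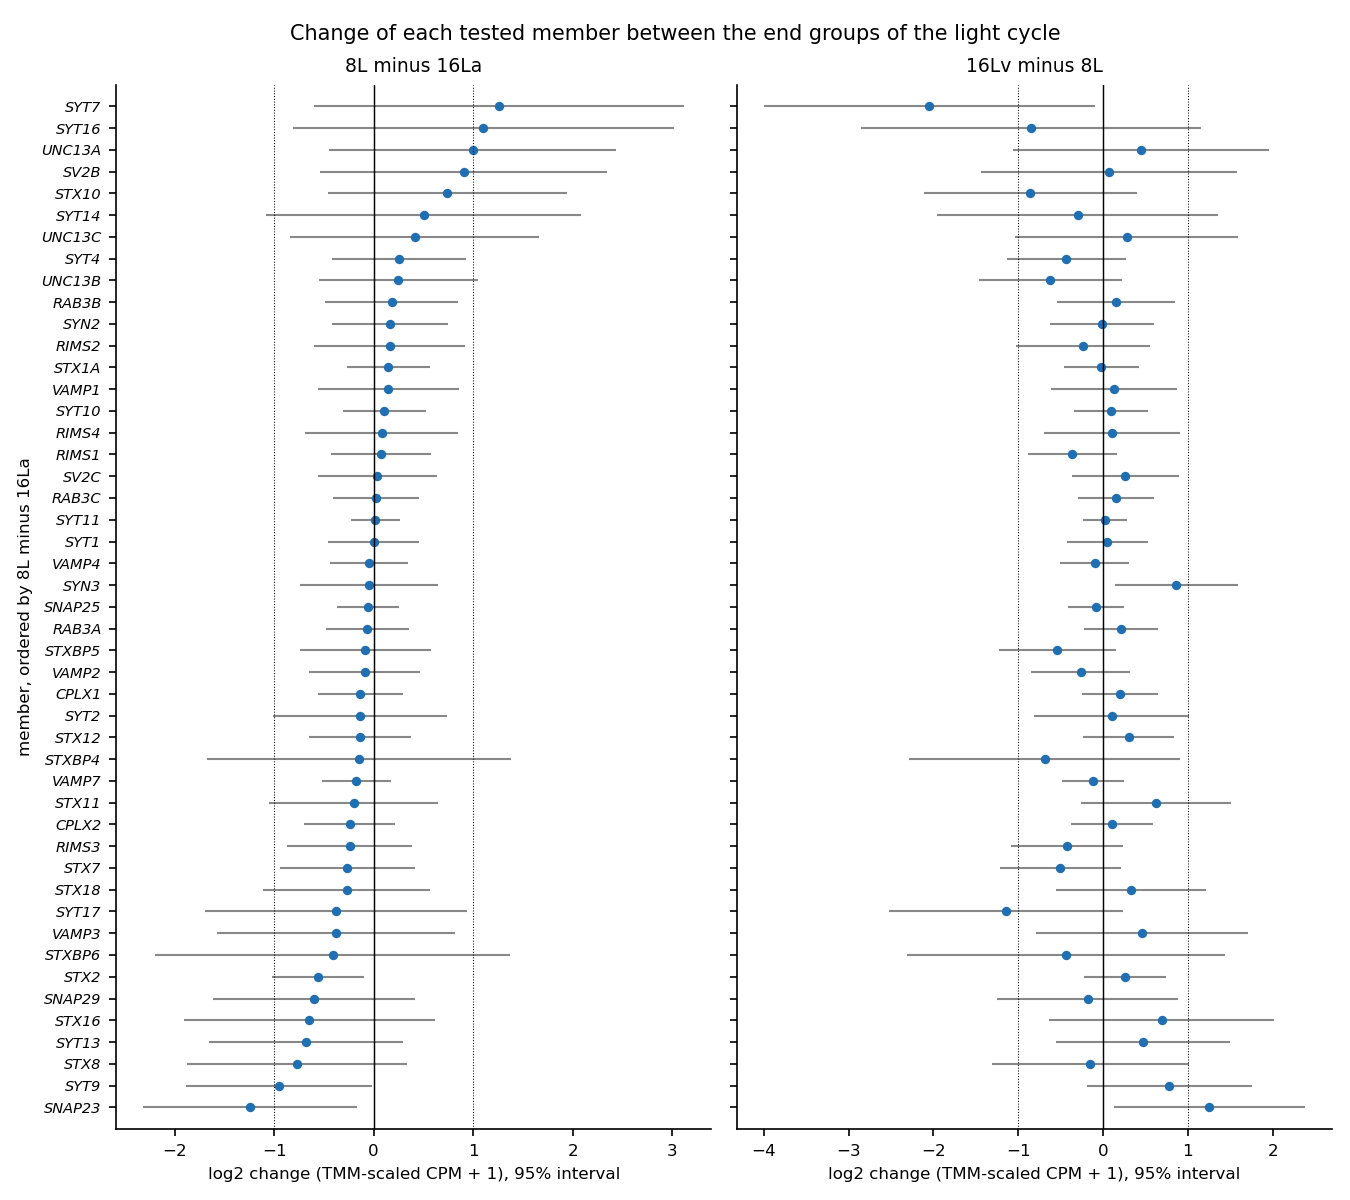
Log2 change of 47 of the 48 tested members (points) with its 95% interval (lines) for 8L minus 16La on the left and 16Lv minus 8L on the right, with members ordered by the left panel; dotted lines mark -1 and 1. The changes on the left run from -1.24 for SNAP23 to 1.26 for SYT7, and most intervals span 0 in both panels, which share the libraries of 8L.

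The start and the end of the light cycle had the same day length. For 16Lv minus 16La, 0 of 48 members were called with limma, where 0.0242% of all genes were; 4 had an unadjusted p under 0.05, where 5.78% of all genes did, and again none was called by the other 3 tools. The median log2 change was -0.01 for the members, with 24 of 48 above 0, and 18 of 48 were above 0 when CPM was scaled by the library total in place of TMM. SYN3 had a log2 change of 0.82 (SE 0.36; limma adjusted p = 0.801), and 2 of its 5 values in 16Lv lay above all birds in 16La, which ran from 4.50 to 21.0 CPM. SYT17, a synaptotagmin relative not known to sense calcium, measured 0, 1.54, 2.58, 0 and 1.26 CPM in 16Lv, against 0 to 11.7 CPM in 16La (median 5.79 CPM), with a log2 change of -1.52 (SE 0.69; limma adjusted p = 0.804). STX7, a syntaxin of late endosomes, measured 10.6, 27.7, 22.8, 6.75 and 15.1 CPM in 16Lv, against 12.8 to 37.8 CPM in 16La (median 30.6 CPM), with a log2 change of -0.77 (limma adjusted p = 0.804). RIMS3, a short RIM protein that lacks the RAB3-binding part, had 4 of its 5 values in 16Lv below all birds in 16La, and its log2 change was -0.67 (SE 0.33; limma adjusted p = 0.839); it is named here after its values were seen. UNC13A had the largest positive change, 1.44 (95% interval -0.07 to 2.95; limma adjusted p = 0.860). The highest SYN3 and UNC13A values and the first SYT17 value listed for 16Lv were in a library with under 400000 reads. So were the lowest SYT17 and UNC13A values in 16La.

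Birds at the same day length on the rising and the declining arm were compared as the average over the 3 rising groups (10Lv, 12Lv, 14Lv) less that over the 3 declining groups (10La, 12La, 14La). With limma 0 of 48 members were called, where 0.0121% of all genes were; 2 had an unadjusted p under 0.05, where 4.81% of all genes did, and none was called by limma-voom, edgeR or DESeq2. The 95% interval lay between -1 and 1 for 38 of the 48 members (79.2%), as it did for 66.7% of all genes. SYT14, a synaptotagmin without the calcium-binding residues, ran from 6.83 to 74.8 CPM in the 18 birds of the rising arm (median 35.6 CPM), against 0 to 88.1 CPM in the 18 birds of the declining arm (median 20.7 CPM). The range of the declining arm enclosed that of the rising arm, and the log2 difference of SYT14 was 1.15 (95% interval 0.24 to 2.06; unadjusted p = 0.0146, limma adjusted p = 0.949). RIMS4, another short RIM protein, ran from 4.53 to 16.7 CPM in the rising arm (median 9.72 CPM), against 2.09 to 15.4 CPM in the declining arm (median 7.57 CPM), with a log2 difference of 0.50 (SE 0.22; limma adjusted p = 0.949). SYT16, a relative of SYT14, had a median of 3.56 CPM in the rising arm, against 9.25 CPM in the declining arm, and its log2 difference was -0.88 (SE 0.55; limma adjusted p = 0.997). At single day lengths 0 of 48 members were called with limma for 10Lv minus 10La (0.0121% of all genes), 12Lv minus 12La (0%) and 14Lv minus 14La (0%). At an unadjusted p under 0.05 there were 1, 2 and 1 members in the 3 pairs, where 4.85%, 4.96% and 3.59% of all genes passed, and the other 3 tools called none.

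A straight line over the hours of light gave the same count. With limma 0 of 48 slopes were called, where 0% of all genes were; 4 had an unadjusted p under 0.05, where 5.18% of all genes did, and none was called by the other 3 tools. SNAP23 had a slope of 0.12 log2 units per hour of light (95% interval 0.02 to 0.22; limma adjusted p = 0.919), and its group medians in step order were 12.4, 12.5, 6.40, 9.85, 5.25, 11.4, 8.00, 9.93 and 10.3 CPM. The lowest median was in 8L, and every group but 16Lv had at least 1 bird below 5 CPM. STX2 had a slope of 0.04 (SE 0.02; limma adjusted p = 0.919) and group medians of 71.4, 63.7, 80.7, 47.7, 52.5, 55.1, 80.2, 84.5 and 57.5 CPM. Its 3 lowest medians were in 10La, 8L and 10Lv, and that of 16Lv stood next to them. CPLX1 had a slope of 0.04 (SE 0.02) and SYT9 one of 0.09 (SE 0.04), each with a limma adjusted p of 0.919. These 4 slopes are positive, but of the 48 slopes 26 were above 0 and 22 below. They ran from -0.11 to 0.12, with a median of 0.001. The negative slopes with the smallest p were those of STX10 and SYT7. The slopes of the rising and the declining arm differed for 0 of 48 members with limma, where 0% of all genes were called, and for 2 at an unadjusted p under 0.05, where 4.50% of all genes passed; limma-voom, edgeR and DESeq2 called none.

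Step by step, each group was compared with the one before it. With limma 0 of 48 members were called at each of the 8 steps. The share of all genes called was 0.0121% for 12La minus 14La, for 10La minus 12La and for 16Lv minus 14Lv, and 0% at the other 5 steps. On the declining arm the members with an unadjusted p under 0.05 numbered 2 for 14La minus 16La (3.48% of all genes), 2 for 12La minus 14La (3.5%), 1 for 10La minus 12La (4.44%) and 2 for 8L minus 10La (4.26%). On the rising arm they numbered 2 for 10Lv minus 8L (3.94%), 0 for 12Lv minus 10Lv (4.68%), 1 for 14Lv minus 12Lv (4.16%) and 3 for 16Lv minus 14Lv (5.55%). The other 3 tools, limma-voom, edgeR and DESeq2, called none at any step. Across the 14 comparisons of 1 group with another, no member had 2 groups whose birds did not overlap; of all genes, between 0.145% and 0.484% did. STX11, a syntaxin known from granule release in human immune cells, had the smallest p of any step. It measured 21.1, 6.16, 16.2, 13.5 and 12.6 CPM in 16Lv, against 0 to 10.0 CPM in 14Lv (median 5.87 CPM). Of the 5 values in 16Lv, 4 lay above all birds in 14Lv. The highest STX11 value in 16Lv and the lowest in 14Lv were in libraries with under 400000 reads. The log2 change was 1.40 (95% interval 0.51 to 2.28; unadjusted p = 0.0027, limma adjusted p = 0.848). For 14Lv minus 12Lv the log2 change of STX11 was -1.21 (SE 0.42; limma adjusted p = 1.000), and both steps share the libraries of 14Lv. At 8L minus 10La, SYT14 had a log2 change of 1.66 (SE 0.78) and STXBP5, also called tomosyn, an inhibitor that occupies syntaxin and SNAP25, one of 0.69 (SE 0.33), each with a limma adjusted p of 1.000. STXBP5 ran from 135 to 301 CPM in 8L (median 181 CPM), against 54.7 to 225 CPM in 10La (median 140 CPM), and 1 bird in 8L lay above all birds in 10La.

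**Figure D3:**
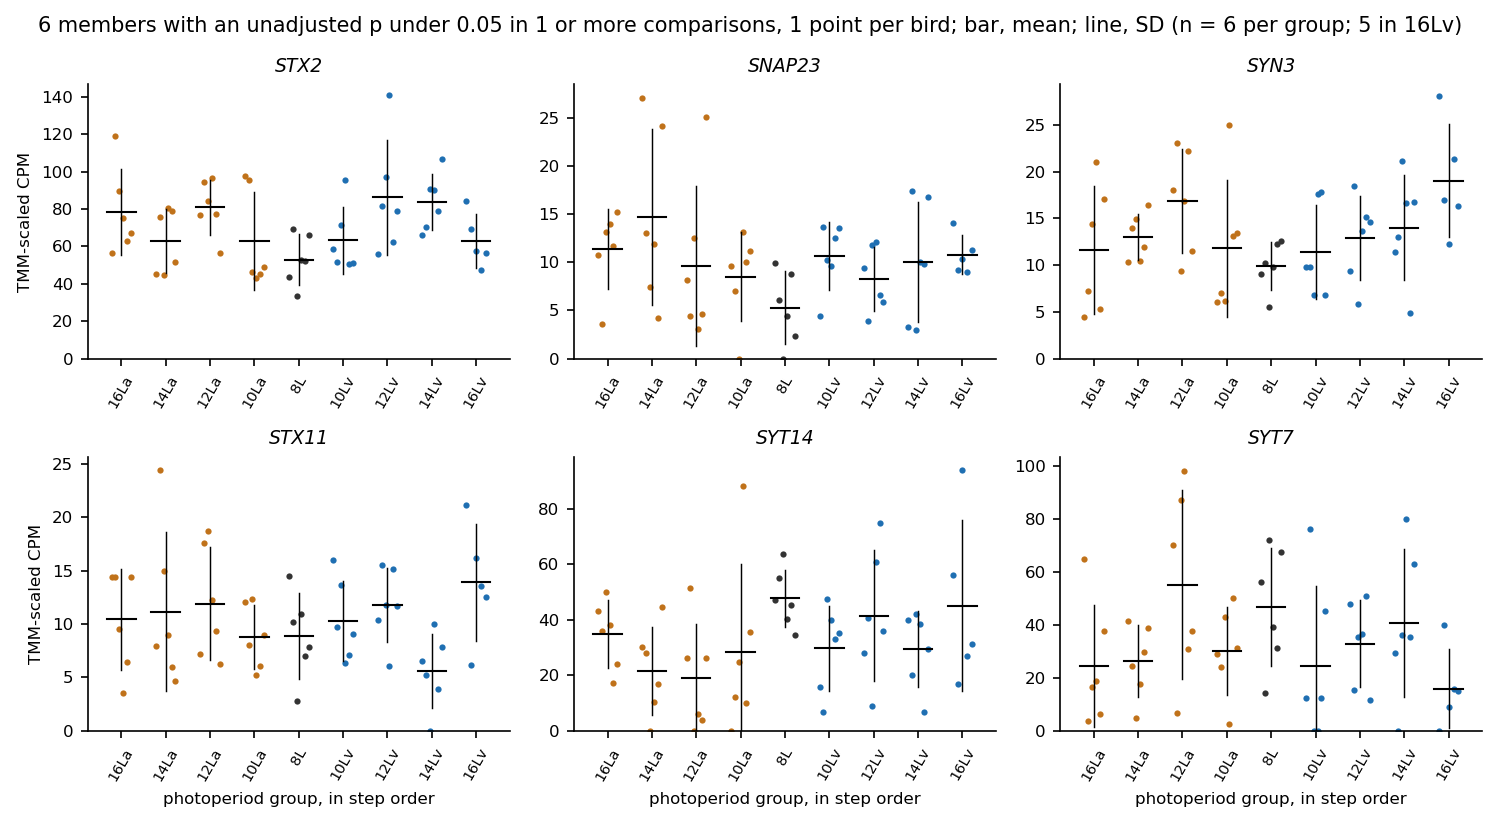
Level in TMM-scaled CPM (vertical axes, from 0) in each bird, by photoperiod group in step order, for 6 members with an unadjusted p under 0.05 in at least 1 comparison (orange, declining arm; dark grey, 8L; blue, rising arm). Bars are group means and vertical lines SDs, drawn down to 0 at most (n = 6, and 5 in 16Lv, where 1 point is the mean of 2 agreeing columns); STX11 is lowest in 14Lv and SNAP23 in 8L, SYT14 and SYT7 span most of their range within several groups, and none of the 6 was called.

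Genes that act beside the 57 were tested in the same comparisons. The lists held 13 tested vesicle membrane proteins and transporters, 16 genes of the active zone scaffold and calcium entry, 16 priming, SNARE recycling and other release factors, 24 genes of vesicle endocytosis and 13 of dense core vesicle release. As drawn up, the lists of release factors and of dense core vesicle release share CADPS, CADPS2, RAB27A and RAB27B, so these lists are not separate sets. With limma none was called in any of the comparisons. For 8L minus 16La 0 genes of the 5 lists had an unadjusted p under 0.05, where 4.22% of all genes did. The highest count was 4 of the 16 active zone genes for 12Lv minus 10Lv, where 4.68% of all genes were under that value. In the same list 3 of 16 were under it for 16Lv minus 16La (5.78% of all genes), the rising minus the declining arm (4.81%), 10Lv minus 8L (3.94%) and the difference between the slopes of the arms (4.50%). For 12Lv minus 12La it was 3 of the 13 dense core vesicle genes and 3 of the 24 endocytosis genes (4.96% of all genes). The other counts were 2 or fewer. In the test among the 9 groups, where 3.74% of all genes were under that value, the 1 gene of the lists was PPFIA1, or liprin-alpha-1, an active zone scaffold (unadjusted p = 0.0273, limma adjusted p = 0.998). PPFIA1 ran from 0 to 190 CPM over the libraries, and its highest value was in 16Lv, where the median was 56.6 CPM, against 10.8 CPM in 16La. RPH3A, or rabphilin, which binds RAB3, ran from 270 to 974 CPM (adjusted p = 0.998), with its lowest bird in 14Lv and its highest in 8L.

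Although no member was called, the members differed widely in how far the libraries lay apart. The median coefficient of variation (SD over mean) over the 53 libraries was 39.5% for the 48 members and 47.7% for all 8268 genes tested, and the median within-group SD was 0.59 and 0.81 on the log2 scale. A read in every library was found for 29 of the 48 members, and for 3917 of all genes. SYT11, a synaptotagmin that does not bind calcium, was the steadiest at 12.5%, with 197 to 349 CPM over all birds. SNAP25 followed at 16.8%, VAMP4, a SNARE of the trans-Golgi network, at 20.8%, VAMP7, a SNARE of late endosomes and lysosomes, at 21.1%, and STX1A at 21.9%. At the other end SYT16 stood at 94.2% and was at 0 in 13 libraries, and SYT17 at 86.2% with 7 libraries at 0. Low read numbers did not accompany every wide spread: SYT7 had 1598 reads and a coefficient of 74.0%, while SYT1 had 1682 reads and one of 24.7%. Over the counting error of their reads, the variance between libraries was 14.2 times as large for SYT7 and 1.53 times for SYT1. UNC13A, with 2865 reads, had a coefficient of 54.2%, against 21.9% for STX1A with 2737 reads.

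**Figure D4:**
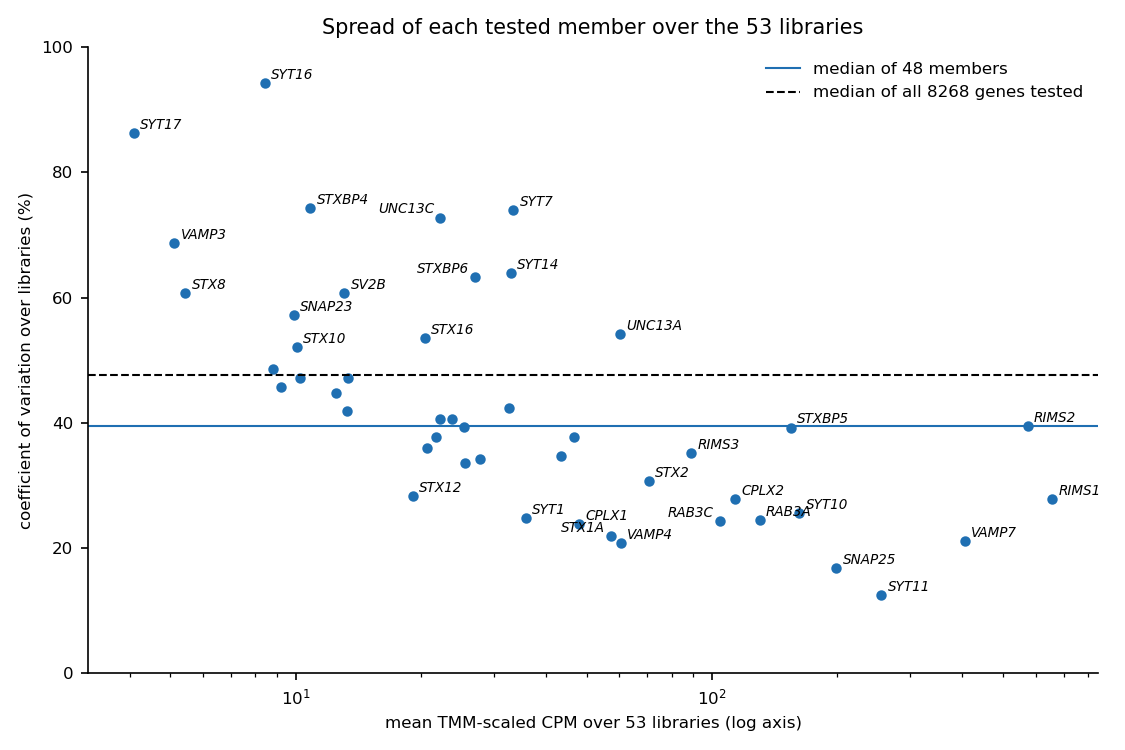
Coefficient of variation over the 53 libraries in percent (vertical axis) against mean TMM-scaled CPM (horizontal log axis; CPM is not scaled by transcript length) for 47 of the 48 tested members, with names for those above 50% or below 32%, or above 85 CPM. The members' median of 39.5% (solid line) lies under that of all genes tested, 47.7% (dashed line); SYT11 and SNAP25 are lowest at 12.5% and 16.8%, and SYT7 at 74.0% stands far above SYT1 at 24.7%, with 1598 and 1682 reads.

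Whether members rose and fell together from bird to bird was looked at over the 44 libraries with more than 400000 reads. Among 1128 pairs of members, Pearson's r ran from -0.47 to 0.51 with a median of 0.02. No pair passed a Benjamini-Hochberg adjusted p of 0.05 by Pearson's r in permutation tests of 100000 resamples. At an unadjusted p under 0.05 there were 78 of the 1128, and pairs of other genes were not tested for a background. By Spearman's rho 1 pair passed the adjusted threshold. That pair was SNAP25 and VAMP4, with r = 0.51 (permutation adjusted p = 0.327) and rho = 0.58 (permutation adjusted p = 0.0338). Their r was 0.58 without the 2 libraries farthest from the median of SNAP25 and 0.54 after group means were taken out. It was 0.16 in the 9 libraries under 400000 reads and 0.36 over all 53 libraries.

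The second deposited table, estimated counts per transcript, held 55 genes of the same symbol families, of which 51 are among the 57. Its depth was far lower, with totals of 4834 to 156500 per library (median 39688). All 54 libraries were used here, since no pair from 1 group agreed within sampling noise in this table (lowest chi-square per degree of freedom 4.15), so replicates 3 and 6 of 16Lv were 1 sample in the CPM table and 2 in this one. It listed SV2A, with 10 counts over all libraries. Only RIMS2, STXBP5 and RAB3B passed edgeR's filter, and 0 of the 3 were called in the quasi-likelihood test among the 9 groups, where 0.484% of 826 genes were. The count was 0 in the other 17 comparisons too, where between 0% and 0.605% of the genes were called. RIMS2 had an unadjusted p under 0.05 in 7 of the 18, STXBP5 and RAB3B in none, and limma-voom and DESeq2 also called 0 of the 3 among the 9 groups. The 18 comparisons share libraries, and the share of all genes under that unadjusted value was not taken for these counts. In this table the counts of a library often stood at many transcripts of the same gene. RIMS2 had 1625 counts summed over its 50 transcripts, and 48 when only the largest transcript of each library was taken. RIMS1 had 263 counts over 49 transcripts and 17 by largest transcript. Its summed counts per group were 4, 4, 100, 3, 0, 5, 2, 96 and 49 in step order. Those of 14Lv and of 16Lv came from 1 bird each, and the highest birds over all groups had 96, 49, 49 and 48. For STXBP5 the sum over 8 transcripts was 548, against 79 by largest transcript. SYN2 and RAB3C, with 1 transcript each, had 108 and 107 counts either way. In the CPM table SYN2 had 2008 recovered reads and RAB3C 4915, against 27106 for RIMS2 and 31818 for RIMS1. By largest transcript the order of these genes was thus the reverse of that in the CPM table. The source of this difference was not tested, so the high CPM levels of RIMS1 and RIMS2 are not borne out by the counts per transcript. Over all genes with at least 2 transcripts, 72.0% of the pairs of a gene and a library with any count had counts at 2 or more transcripts, and 48.7% had them at every transcript. Summed RIMS2 counts per group were 424, 180, 359, 279, 160, 136, 78, 4 and 5 in step order, and by largest transcript they were 10, 6, 9, 7, 6, 4, 3, 1 and 2. These counts are not scaled by depth, which differed between groups. Library totals in this table ran from 36017 to 119229 in 16La and from 4834 to 50923 in 16Lv. For 16Lv minus 16La the summed counts gave RIMS2 a log2 change of -5.48 (SE 1.90; edgeR unadjusted p = 0.0058, adjusted p = 0.314). In the CPM table RIMS2 measured 647, 442, 452, 425 and 459 CPM in 16Lv, against 284 to 758 CPM in 16La (median 547 CPM), all 5 inside the range of 16La.

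**Figure D5:**
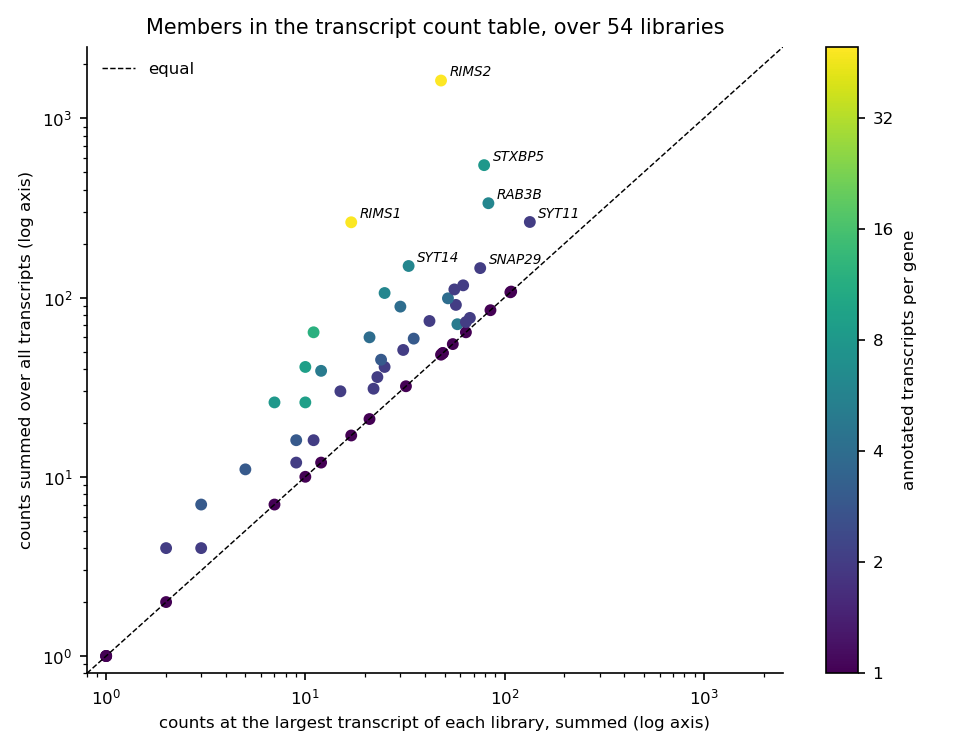
Counts of each member in the transcript count table, summed over all its transcripts (vertical log axis) against counts at the largest transcript of each library, summed over 54 libraries (horizontal log axis); colour gives the number of annotated transcripts, and genes with more than 120 summed counts are named. Genes with 1 transcript lie on the dashed line of equality, and RIMS2 (1625 against 48) and RIMS1 (263 against 17), with 50 and 49 transcripts, lie farthest above it.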

How the data were processed

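RNA of the mediobasal hypothalamus of single birds (labelled polyA RNA) was made into Nanopore direct cDNA libraries with native barcodes, per the labels' protocols. The authors deposited a table of CPM per gene, scaled to each library's total, and a table of estimated counts (expected counts) per transcript; per the submitters' processing notes minimap2 2.17, Salmon 0.14.2 and edgeR 3.24.3 were used, with the step of each, the genome build and the use of strand not given in the sources used here. Overlapping and antisense genes therefore cannot be told apart. CPM values are whole multiples of 1 read, within 0.1 read for between 99.8% and 100% of values per library, so reads were recovered. The smallest value was below 1 such read in 47 of the 54 libraries, so the read counts, and the fits that use them, are approximate. A read counted at several features would enter these totals more than once. The design foresaw counts; as the gene table holds CPM, the test was limma-trend (limma 3.58.1) with 9 group means and no covariate, over 53 libraries, for log2(TMM-scaled CPM + 1). A change on this scale understates that of low genes. Count tests (edgeR 4.0.16, DESeq2 1.42.0) and limma-voom on recovered reads were alternatives. The count table was summed per gene and tested with edgeR's quasi-likelihood test (minimum count 10). Calls are at a Benjamini-Hochberg adjusted p under 0.05 over all genes tested. The steps were tested on simulated data with known changes. Named were core release genes, the members with the smallest p per main comparison and direction, and those of highest mean CPM; members named for single steps, RIMS3, STXBP5, SYT11 and VAMP4 were chosen after their values were seen. The members and lists were chosen with earlier results of these data known. Left out were 14 genes whose names had become dates. No sequence or genome coordinate is given. Values of some members are not reported here, though they are in the counts.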

Additional observations from a re-analysis of the deposited data

Results flagged for a closer look

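A bird was singled out where its gap to the nearest other bird of its group was a large part of the group's range (Dixon's test at the 95% level, which chance passes in about 1 of 20 groups). Over 27 named members and 9 groups, 243 groups were tested and 10 had such a bird, of which 5 were in libraries with under 400000 reads. Levels are TMM-scaled CPM. SYT1 stood at 61.2 in 1 bird of 14La, where the next was at 37.5. SYN2 stood at 95.3 in 1 bird of 12La, where the next was at 46.2. SYT16 stood at 28.2 in 1 bird of 10La, where the next was at 8.93, and VAMP7 at 649 in 1 bird of 16La, where the next was at 470. RIMS4 stood lowest at 5.52 in 1 bird of 8L, where the next was at 9.18. The other 5 were in shallow libraries. RIMS1 stood at 1175 in 1 bird of 14La, where the next was at 712, and STX7 at 55.5 in 1 bird of 10La, where the next was at 23.4. The library of 16Lv with 264272 reads held 3 of them: RIMS2 at 647, where the next was at 459, RIMS4 at 24.6, where the next was at 10.1, and STX10, a syntaxin known from the human trans-Golgi network, at 0, where the next was at 8.35. The part of library depth in these values was not tested.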

How the results depend on the processing

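The count of members called was 0 in each of the 18 comparisons of the CPM table under every alternative that was run: a pseudocount of 0.25, no filter, a lower filter, scaling by library total, limma-voom, edgeR and DESeq2 on recovered reads, the 6 shallowest libraries left out, the agreeing columns kept apart, and, chosen after seeing the data, the 9 libraries under 400000 reads left out or given a term, and a block on the order of bird numbers. It was also 0 in fits of only the groups compared (4 comparisons), and leaving out each library in turn gave between 0 and 0 members called in the 6 main comparisons and the count table. The log2 change of each member named for its small p in a main comparison kept its sign under each alternative run for it. In the count table the number of members called among the 9 groups was 0 with the filter. Without it 11 of the 55 were called, where 8.81% of 16442 genes were. These included RIMS1 and RIMS2, whose counts are repeated over many transcripts. The others were SYT16, STX17, UNC13C, SYT6, STXBP3, SYT7, SYT14, SYT1 and STX16. They had 2 to 12 transcripts and 26 to 150 summed counts each over all libraries. With only the largest transcript count per gene, chosen after seeing the data, 210 genes and no member passed the filter, so that no value could be had. Over all 8268 genes the test among the 9 groups called 3, the other settings on CPM or recovered reads between 2 and 5, and DESeq2 15. Scaling by library total moved the median log2 change of all genes for 16Lv minus 8L to -0.10, against -0.04 with TMM, and left 20 of 48 slopes above 0, against 26. The labels number the birds but name no batch or pairing. The mean correlation of deviations from the group means was 0.028 between birds of the same order by number and -0.0048 between others. Of 52 libraries, 33 were closest on average to their own order, out of 6 positions. Birds of the same order were thus somewhat more alike than others. The main test had no term for this order, and the source of the likeness was not tested. With that replicate block 0 members were called, and 3 genes among the 9 groups. Depth limits the low members: SYT17 had 204 reads over all libraries. The birds are separate animals, but the labels give no batch, and n of 5 or 6 left intervals wider than 1 log2 unit on either side for many members.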
